A study of Mus musculus with 48 samples.

Results

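Ly6Clo MHCIIlo cells were compared with Ly6Chi MHCIIhi cells, sorted populations that differ in both surface markers at the same time. The members are all libraries whose titles name either population: 8 of Ly6Clo MHCIIlo (4 labelled ctrl and 4 labelled ko) and 8 of Ly6Chi MHCIIhi, of 48 libraries in the series. Ly6Chi MHCIIhi ctrl replicate 2 held 8409 counts and was left out, so 15 samples were used, 8 against 7. The cells are labelled as sorted intratumoral immune cells of mice given AOM DSS, the carcinogen azoxymethane and the colitis-inducing salt dextran sulfate sodium, and every sample is labelled day 85. The genotype ko is the loss of CCL17, a chemokine, as the series describes it, and ctrl mice are its controls. Some ko mice shared cages with controls and others did not, but the housing of single samples is not labelled and was not modelled. The gate is known only by its 2 surface names, and no further sort marker is labelled. It is not labelled whether replicates came from different mice, and a p-value here reflects only how these samples vary, which may be technical.

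Ly6C marks monocytes that have recently come from blood, and gut and tumour monocytes lose it as they become macrophages. In the healthy colon that path usually leads through cells that gain MHC class II, which presents peptides to helper T cells. Macrophages in tumours often hold little class II and are known for taking up dying cells, for lysosomal digestion and for matrix remodelling, while neutrophils also carry Ly6C at low to middle levels and lack class II.

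Sequencing was from the 3′ end of poly(A) RNA, and a level is given in CPM, the usual depth-scaled count, with library sizes adjusted by TMM. Totals ran from 139098 to 248593 counts in Ly6Clo MHCIIlo and from 34362 to 290631 in Ly6Chi MHCIIhi. The library Ly6Chi MHCIIhi ctrl replicate 1 stood apart from all others. Haemoglobin transcripts took 22.9% of its counts, against at most 0.693% in the other 14 libraries, and neutrophil transcripts 6.53%, against 0.532 to 3.82%. On a multidimensional scaling plot it lay at −0.48 on the first axis, among the Ly6Clo MHCIIlo samples (−0.68 to −0.45), and alone at 2.46 on the second. Results that rest on it are given with and without it. Ccl17 itself had 0 to 3 counts in each of the 15 samples, with counts in both genotypes. That is at or below the 3 counts taken as the floor, and a 3′ tag need not lie in the altered part of a gene, so Ccl17 does not check the genotype labels here.

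Both sort markers differed at the RNA level in the direction of the labels. Ly6c2, which encodes the Ly6C antigen of monocytes (GRCm38 15:75108158-75111970), lay between 18.9 and 61.8 CPM in Ly6Clo MHCIIlo (median 44.7) and between 331 and 798 CPM in Ly6Chi MHCIIhi (median 466). The populations did not overlap, and the log2 fold of Ly6Clo MHCIIlo over Ly6Chi MHCIIhi was −3.56 (SE 0.27; edgeR quasi-likelihood F test, adjusted p = 3.33e-09). Cd74, the invariant chain that escorts class II molecules, lay between 1921 and 3287 CPM (median 2532) against 3623 to 14530 CPM (median 10620), a log2 fold of −1.85 (SE 0.20, adjusted p = 1.37e-07). Its lowest Ly6Chi MHCIIhi value was that of ctrl replicate 1, and the next was 6597 CPM. Ly6c1, the neighbouring Ly6 gene, had no count in Ly6Clo MHCIIlo and 6 counts in Ly6Chi MHCIIhi and was not tested.

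Of 4175 tested genes, 987 (23.6%) passed an adjusted p of 0.05. In Ly6Clo MHCIIlo 490 of them (11.7%) were higher and 497 (11.9%) were lower. Counts of calls in the gene lists below are to be read against these shares. The samples of the populations did not overlap for 200 tested genes (4.79%), of which 122 (2.92%) were higher and 78 (1.87%) lower. A fold of over 4 (a log2 fold beyond 2) was reached by 52 genes that rose and 23 that fell, and the median log2 fold of all tested genes was 0.03. Because whole sorted populations were measured, fewer cells of a type and less RNA per cell cannot be told apart.

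**Figure D1:**
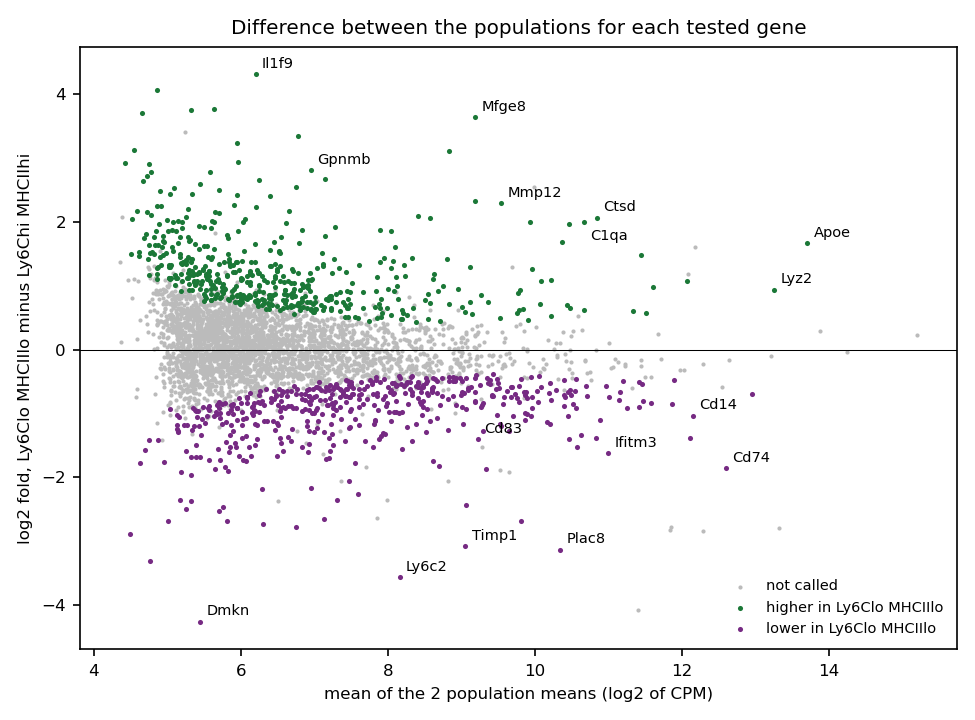
Each point is 1 of 4175 tested genes, with the mean level of the populations on the horizontal axis (log2 of CPM) and the log2 fold of Ly6Clo MHCIIlo over Ly6Chi MHCIIhi on the vertical axis. Green points (490) were higher and purple points (497) lower in Ly6Clo MHCIIlo at an adjusted p under 0.05, and grey points were not called; Apoe and Lyz2 sit high at abundant levels, and Cd74, Cd14 and Plac8 sit low.

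Genes for clearing dying cells, for lipid and for matrix were among the largest folds on the higher side. Mfge8, a secreted bridge between dying cells and phagocytes (7:79133768-79149060), lay between 511.8 and 1970 CPM in Ly6Clo MHCIIlo (median 999.9) and between 39.7 and 139 CPM in Ly6Chi MHCIIhi (median 93.3), a log2 fold of 3.64 (SE 0.30, adjusted p = 5.34e-08). Every Ly6Clo MHCIIlo sample was thus above every Ly6Chi MHCIIhi sample, which the rule for naming the genes with the largest folds required. Gpnmb, a glycoprotein of lysosomes in lipid-laden macrophages (6:49036546-49070929), lay between 105 and 318 CPM (median 225) against 14.4 to 49.97 CPM (median 24.1), a log2 fold of 2.81 (SE 0.25, adjusted p = 3.33e-09). Lpl, the lipoprotein lipase that frees fatty acids from lipoproteins, had medians of 70.2 and 7.33 CPM and a log2 fold of 2.59. Nceh1, a hydrolase of cholesterol esters, had medians of 90.3 and 15.8 CPM and a log2 fold of 2.49.

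Growth factors and matrix genes were among the same leaders. Igf1, insulin-like growth factor 1, lay between 40.4 and 192 CPM against 0 to 25.5 CPM, a log2 fold of 2.93 (SE 0.41, adjusted p = 7.36e-06). Csf1, the growth factor that macrophages depend on, lay between 84.4 and 252 CPM against 12.7 to 49.97 CPM, a log2 fold of 2.54 (SE 0.31, adjusted p = 8.17e-07). Csf1r, its receptor, did not pass: the medians were 1249 and 1442 CPM, and the log2 fold was 0.01 (SE 0.18, adjusted p = 0.978). Of the matrix genes, Col14a1, a collagen of the fibril surface, had a log2 fold of 3.76, Mmp2, a gelatinase, of 2.78 and Timp2, an inhibitor of matrix metalloproteases, of 2.67. Adamdec1, a secreted protease-like protein of gut macrophages, had a log2 fold of 2.65. Col14a1 and Mmp2 are also genes of fibroblasts; of the 12 genes listed for fibroblasts and smooth muscle none reached the count filter, and their summed level was 9.37 to 74.1 CPM in Ly6Clo MHCIIlo and 12.7 to 44.0 CPM in Ly6Chi MHCIIhi. Syngr1, a small vesicle protein, had a log2 fold of 3.35, and Slc39a4, a zinc importer, of 2.53. Syngr1 overlaps Rpl3 on the other strand, and the strand used in counting is not given, so reads of the pair cannot be told apart.

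**Figure D2:**
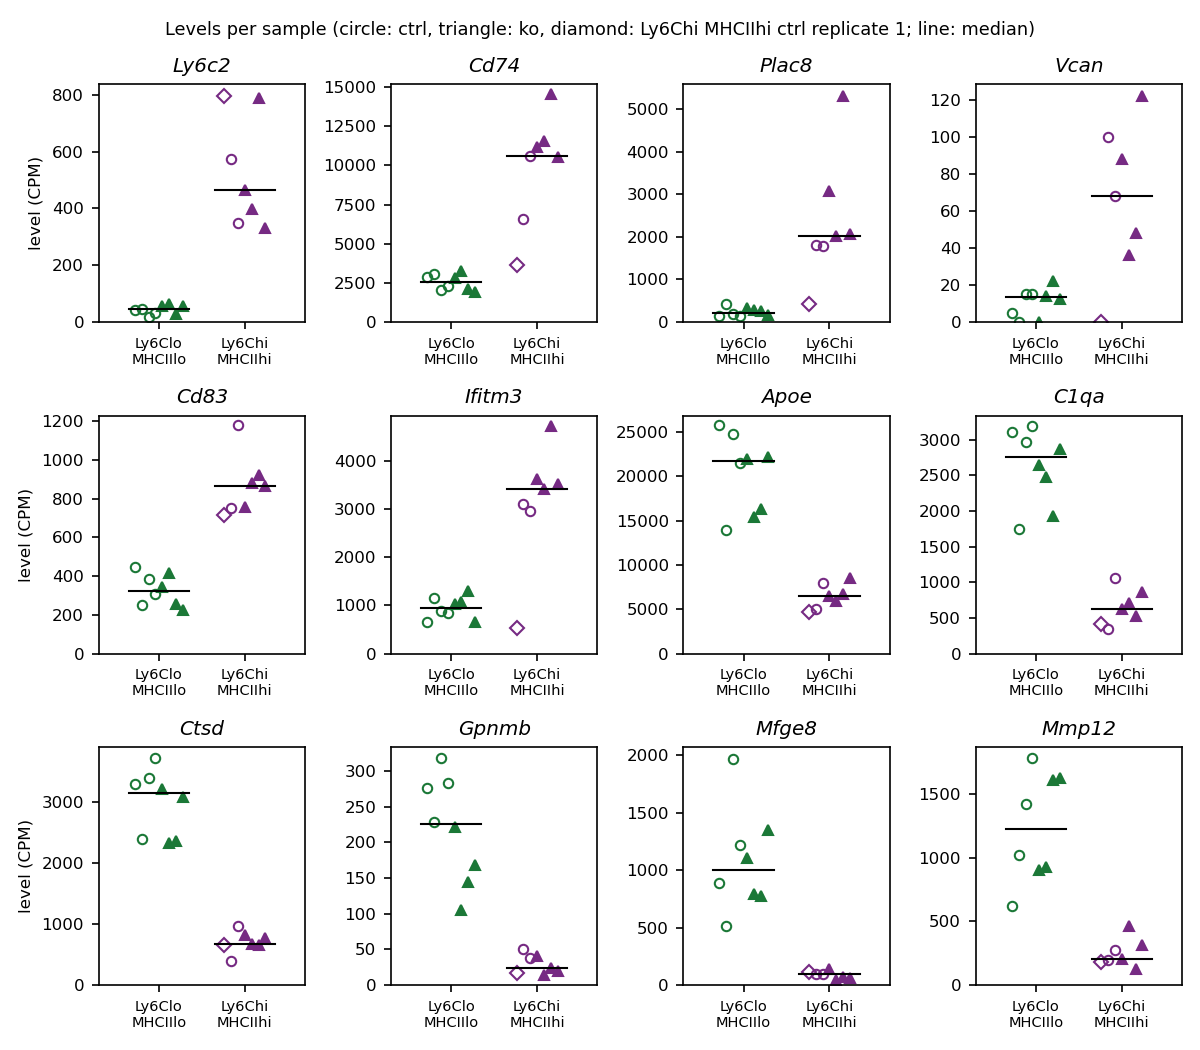
Levels in CPM of 12 genes in each of the 8 Ly6Clo MHCIIlo (green) and 7 Ly6Chi MHCIIhi (purple) samples; circles are labelled ctrl, triangles ko, the diamond is Ly6Chi MHCIIhi ctrl replicate 1, and the line is the median. Apoe, C1qa, Ctsd, Gpnmb, Mfge8 and Mmp12 do not overlap between the populations, and the diamond is the lowest purple point for Cd74, Plac8, Vcan, Cd83 and Ifitm3.

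Most of the mature macrophage list rose. Of its 21 tested genes 15 were higher and none was lower (71.4% called, against 23.6% of all genes), with a median log2 fold of 1.21. C1qa, a chain of the complement starter C1q (4:136895917-136898803), lay between 1744 and 3188 CPM (median 2756) against 349.8 to 1061 CPM (median 623), a log2 fold of 2.00 (SE 0.20, adjusted p = 4.37e-08). C1qc, its partner chain, had a log2 fold of 1.97. Apoe, which carries lipid out of cells (7:19696109-19699188), lay between 13930 and 25740 CPM (median 21740) against 4686 to 8480 CPM (median 6442), a log2 fold of 1.66 (SE 0.18, adjusted p = 5.97e-08). Cd63, a membrane protein of late endosomes, had medians of 1615 and 334 CPM and a log2 fold of 1.99. For all 4 genes no Ly6Chi MHCIIhi sample reached the lowest Ly6Clo MHCIIlo sample. Adgre1, which encodes the macrophage marker F4/80, lay between 94.7 and 197 CPM against 16.6 to 76.4 CPM, a log2 fold of 1.31 (SE 0.23, adjusted p = 0.000143). Besides Csf1r, members that did not pass included Fcgr1 (log2 fold −0.31, SE 0.24).

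Most lysosomal genes rose too. Of 25 tested genes 19 were higher and none was lower (76% called, against 23.6% of all genes), and the median log2 fold was 0.78. Ctsd, the aspartic protease cathepsin D, lay between 2326 and 3724 CPM (median 3142) against 399.8 to 967 CPM (median 674), a log2 fold of 2.06 (SE 0.18, adjusted p = 3.33e-09). Ctsl, a cysteine protease, had a log2 fold of 1.18, and Grn, the progranulin that supports lysosomal enzymes, of 1.26 (SE 0.15, adjusted p = 7.42e-07). When single samples were left out, 15 to 18 of the list were higher, and without Ly6Chi MHCIIhi ctrl replicate 1 a single member, Npc2, was lower.

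The motif TCACGTG, the core of the CLEAR element known from lysosomal genes, was searched on both strands of the 250 bases before each RefSeq start (GRCm38.p6). It was in 6 of the 21 tested lysosomal genes that have such a sequence (28.6%), against 7.03% of the 3103 tested genes with one and 3.58% of all 27025 genes of the promoter table. Among all genes that rose it was in 7.33%, and among all that fell in 6.23%, both close to the share of tested genes. Of those 6 genes Ctsd, Lgmn, the carboxypeptidase gene Ctsa (log2 fold 0.85, adjusted p = 0.000264) and the lysosomal membrane gene Lamp1 (0.47, adjusted p = 0.0474) rose. Lamp1 lost its call in 14 of 25 alternatives. The proton pump gene Atp6v1a (0.46, adjusted p = 0.0599) and Gaa, which encodes acid alpha-glucosidase (0.54, adjusted p = 0.154), did not pass. Stretches of Ctsd and Lgmn, which had the largest folds of the 6, are shown with each match in capitals. That of Ctsd is at chr7:142387908-142387937 on the minus strand, 81 to 110 bases before the RefSeq start and inside an exon that GENCODE annotates, and its capitals hold 2 overlapping matches, one on each strand. That of Lgmn, which encodes the cysteine protease legumain, is at chr12:102439100-102439179 on the minus strand, 8 to 87 bases before a RefSeq start. That start is inside the gene as GENCODE annotates it (12:102394084-102439813). The stretch is thus within the gene and not before its GENCODE start.
Ctsd: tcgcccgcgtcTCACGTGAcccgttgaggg
Lgmn: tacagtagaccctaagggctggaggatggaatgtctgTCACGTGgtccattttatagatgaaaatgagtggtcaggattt
A match describes the letters only, and the motif was chosen with these results known.

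Genes of lipid handling that passed were higher. Of 17 tested lipid genes 9 were higher and none was lower (52.9% called, against 23.6% of all genes, median log2 fold 0.71). When Ly6Chi MHCIIhi ctrl replicate 1 was left out, 9 were higher and 1 lower: Npc2, the lysosomal cholesterol carrier, had a log2 fold of −0.23 (adjusted p = 0.354) with all samples and −0.39 (adjusted p = 0.0133) without that one. Npc1, which moves cholesterol out of lysosomes, had medians of 83.2 and 29.7 CPM and a log2 fold of 1.49 (SE 0.28, adjusted p = 0.000209). Cd36, a scavenger receptor for oxidised lipid, lay between 47.1 and 91.1 CPM in Ly6Clo MHCIIlo and between 0 and 24.99 CPM in 6 of the Ly6Chi MHCIIhi samples, but at 149.6 CPM in ctrl replicate 1. Its log2 fold was 2.15 (adjusted p = 0.00603), and 3.23 (adjusted p = 4.54e-08) without that sample. In the list for iron and haem 2 of 7 tested genes were higher (0 to 3 when single samples were left out) and none was lower, near the 23.6% called among all genes. A single member was lower without Ly6Chi MHCIIhi ctrl replicate 1, Slc11a1, a metal transporter of phagosomes, with a log2 fold of −0.41 (adjusted p = 0.0486), against −0.30 (adjusted p = 0.258) with all samples. Slc40a1, the iron exporter ferroportin, lay between 23.8 and 66.2 CPM against 0 to 16.6 CPM, a log2 fold of 2.64 (SE 0.51, adjusted p = 0.000324).

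Genes of tumour-associated macrophages and of the matrix split. Of 18 tested genes of the tumour-associated macrophage list 10 were higher and 2 lower (66.7% called, against 23.6% of all genes, median log2 fold 0.58). Mmp12, macrophage elastase, lay between 619 and 1786 CPM (median 1224) against 129 to 462 CPM (median 205), a log2 fold of 2.29 (SE 0.26, adjusted p = 1.88e-06). Spp1, the secreted protein osteopontin, lay between 1404 and 2489 CPM (median 1502) against 249 to 1214 CPM (median 792), a log2 fold of 1.09 (SE 0.25, adjusted p = 0.00257). Without Ly6Chi MHCIIhi ctrl replicate 1 the list had 9 higher and 5 lower, and 1 to 3 were lower without any other sample. In the matrix and proteolysis list, with 18 tested, 7 were higher and 5 lower (66.7% called, against 23.6% of all genes). Mmp9, a gelatinase of macrophages and neutrophils, had medians of 906 and 137.0 CPM and a log2 fold of 2.32. Timp1, an inhibitor of metalloproteases, went the other way from Timp2: it lay between 37.5 and 320.1 CPM (median 67.5) in Ly6Clo MHCIIlo and between 83.1 and 1456 CPM (median 1096) in Ly6Chi MHCIIhi, a log2 fold of −3.07 (SE 0.49, adjusted p = 0.000643). The 83.1 CPM were those of ctrl replicate 1; the other 6 samples, from 607 CPM up, did not overlap with Ly6Clo MHCIIlo.

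Most tested genes of classical monocytes were lower. Of 18 tested genes 10 were lower and 1 higher (2 without Ly6Chi MHCIIhi ctrl replicate 1), with a median log2 fold of −1.43. With all samples 61.1% were called, against 23.6% of all genes. Plac8, a small protein abundant in Ly6Chi monocytes (5:100553725-100572245), lay between 136 and 424 CPM (median 216) against 415.5 to 5318 CPM (median 2023), a log2 fold of −3.13 (SE 0.39, adjusted p = 6.28e-05). Vcan, the proteoglycan versican, had medians of 13.3 and 67.9 CPM and a log2 fold of −2.50. Ccr2, the chemokine receptor through which monocytes leave the marrow, had medians of 54.9 and 191 CPM and a log2 fold of −1.53 (SE 0.31, adjusted p = 0.000992). Ms4a4c, a membrane protein of monocytes, had medians of 15.9 and 71.0 CPM and a log2 fold of −2.47. For Plac8, Vcan and Ccr2 the lowest Ly6Chi MHCIIhi sample was ctrl replicate 1. The gene that rose was Lyz2, the lysozyme of myeloid cells, which lay between 8411 and 15840 CPM against 4121 to 7833 CPM, a log2 fold of 0.93 (SE 0.17, adjusted p = 0.000237). Of 8 tested genes for non-classical monocytes 1 was higher and 1 lower, near the share of all genes. It was 2 and 2 without Ly6Chi MHCIIhi ctrl replicate 1, 3 were higher without ctrl replicate 3 of that population and 2 without Ly6Clo MHCIIlo ctrl replicate 1, and 2 were lower without Ly6Clo MHCIIlo ctrl replicate 2. Cx3cr1, their chemokine receptor, had a log2 fold of 0.70 (SE 0.33, adjusted p = 0.136), which passed without Ly6Chi MHCIIhi ctrl replicate 3 (1.06, adjusted p = 0.00066).

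Most tested genes of the class II antigen presentation list were lower. Of 9 tested genes 6 were lower and 1 higher (77.8% called, against 23.6% of all genes, median log2 fold −1.18). Cd74 stands for the sort itself, and most class II chains are not analysed here. The other lower genes were Cd83, Cd40, Ciita, Cd80 (log2 fold −1.18, adjusted p = 0.0386) and Cd86 (−0.77, adjusted p = 0.02025). Ctss, a lysosomal protease, and Rfxap did not pass (log2 folds 0.24 and 0.205). Cd83, which holds class II and CD86 at the surface (13:43784775-43803132), lay between 225 and 445 CPM (median 325) against 715 to 1180 CPM (median 864), a log2 fold of −1.40 (SE 0.17, adjusted p = 4.01e-07). Cd40, a receptor for T cell help, had medians of 51.7 and 116 CPM and a log2 fold of −1.46. Ciita, the master regulator of class II genes, had medians of 30.9 and 106 CPM and a log2 fold of −1.52 (SE 0.42, adjusted p = 0.0105). Lgmn was the member that rose, with medians of 1209 and 598 CPM and a log2 fold of 0.93 (SE 0.18, adjusted p = 0.000353). Napsa, an aspartic protease listed with dendritic cells, had medians of 67.7 and 249 CPM and a log2 fold of −1.59. The defining dendritic genes Flt3 and Zbtb46 had medians of 2.79 and 1.89 CPM in Ly6Clo MHCIIlo and of 3.94 and 0 CPM in Ly6Chi MHCIIhi, and neither was tested. Of the dendritic list 1 of 6 tested genes was higher and 2 were lower (1 to 4 when single samples were left out). That is 50% called, against 23.6% of all genes. Of 5 tested class I genes none passed. Without Ly6Chi MHCIIhi ctrl replicate 1, 3 of 7 were lower, and without any other sample none was.

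Other genes of the lower side with the largest folds came from several functions. Dmkn, dermokine, known as a secreted protein of epithelia (7:30763756-30781063), lay between 0 and 9.37 CPM in Ly6Clo MHCIIlo and between 16.6 and 175 CPM in Ly6Chi MHCIIhi, a log2 fold of −4.26 (SE 0.52, adjusted p = 6.60e-07). The 16.6 CPM, in ctrl replicate 1, are under the 3 counts taken as the floor, so its lack of overlap is not resolved there. Without that sample the log2 fold was −4.44 (adjusted p = 3.62e-10). No gene of the epithelial list passed (10 tested; 1 without Ly6Chi MHCIIhi ctrl replicate 3), and its summed level reached 2660 CPM in Ly6Clo MHCIIlo and 2024 CPM in Ly6Chi MHCIIhi. Atp2b4, a calcium pump of the plasma membrane, lay between 9.37 and 38.1 CPM against 99.9 to 233 CPM, a log2 fold of −2.73 (SE 0.29, adjusted p = 5.97e-08). Ramp1, a partner of the receptor for the neuropeptide CGRP, had a log2 fold of −1.72, Bach1, a haem-sensing repressor, of −1.59, Rgcc, a cell cycle regulator, of −1.42, and Cytip, a binder of cytohesin, of −1.41. Dusp2, a phosphatase of MAP kinases, had a log2 fold of −1.56, Pxk, a protein of receptor trafficking, of −1.26 and Mycbp2, a ubiquitin ligase, of −1.22. For each of these the populations did not overlap, which the rule for naming them required. Cd3d, a chain of the T cell receptor complex, belonged to the same set: it lay between 3.78 and 16.6 CPM against 25.2 to 126 CPM, a log2 fold of −2.38 (SE 0.46, adjusted p = 0.000371). In the T and NK cell list 1 of 4 tested genes passed (0 to 2 when single samples were left out), near the 23.6% called among all genes. The summed level of that list was 108 to 896 CPM in Ly6Clo MHCIIlo and 447 to 3934 CPM in Ly6Chi MHCIIhi. The part of T cells in these differences was not tested.

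Interferon response genes that passed were lower, with 1 exception. Of 14 tested genes 7 were lower and 1 higher (57.1% called, against 23.6% of all genes), with a median log2 fold of −1.15. When single samples were left out, 5 to 10 were lower. Ifitm3, which blocks entry of viruses (7:141009586-141010770), lay between 659.6 and 1298 CPM (median 954) against 532 to 4723 CPM (median 3411), a log2 fold of −1.62 (SE 0.26, adjusted p = 0.000123). The 532 CPM were those of ctrl replicate 1, and the other 6 samples, from 2970 CPM up, did not overlap. Zbp1, a sensor of left-handed nucleic acids, had medians of 39.8 and 148 CPM and a log2 fold of −2.36. Irf7, the transcription factor that amplifies interferon production, had medians of 43.5 and 93.3 CPM and a log2 fold of −1.19. Ly6e, an interferon-induced surface protein, had a log2 fold of −1.04.

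Isg15, a ubiquitin-like protein, lay between 24.6 and 139 CPM (median 58.9) against 114 to 748 CPM (median 198), a log2 fold of −2.06 (SE 0.44, adjusted p = 0.00387). Bst2, tetherin, which holds budding viruses at the membrane, was the member that rose: it lay between 155 and 298 CPM (median 228) against 49.9 to 217 CPM (median 125), a log2 fold of 0.79 (SE 0.21, adjusted p = 0.00723). In the 250 bases before the start, the letters GAAA, 2 bases of any kind and GAAA again, which are those of the interferon-stimulated response element ISRE, stood on either strand in 7 of 11 tested interferon genes with a RefSeq promoter (63.6%), against 3.32% of tested genes and 3.46% of the promoter table. The motif was in 4.71% of all genes that rose and 6.23% of all that fell. Stretches of the 2 genes that went opposite ways are shown, with every match in capitals. That of Isg15 is at chr4:156200840-156200919 on the minus strand, 22 to 101 bases before the start, and holds 3 overlapping matches. That of Bst2 is at chr8:71537552-71537631 on the minus strand, 80 to 159 bases before the start, and holds 2.
Isg15: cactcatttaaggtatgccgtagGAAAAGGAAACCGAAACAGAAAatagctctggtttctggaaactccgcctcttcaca
Bst2: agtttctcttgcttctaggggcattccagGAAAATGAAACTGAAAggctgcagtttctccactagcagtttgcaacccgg
The matches describe letters and not binding, and both genes hold them although one fell and the other rose.

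NF-kB targets that passed were lower, with 2 exceptions. Of 24 tested genes 10 were lower and 2 higher (50% called, against 23.6% of all genes, median log2 fold −0.63). Without Ly6Chi MHCIIhi ctrl replicate 1 it was 15 and 1 of 25, and 0 to 2 were higher when single samples were left out. Traf1, an adaptor of TNF receptors (2:34941750-34961772), lay between 188 and 423 CPM (median 231) against 316 to 1376 CPM (median 998), a log2 fold of −1.87 (SE 0.23, adjusted p = 3.84e-06). Nfkbia, the inhibitor that NF-kB itself induces, had medians of 1904 and 3773 CPM and a log2 fold of −0.90. Cd14, the co-receptor for bacterial lipopolysaccharide, lay between 2261 and 4039 CPM (median 2766) against 1263 to 8448 CPM (median 7114), a log2 fold of −1.03 (SE 0.23, adjusted p = 0.00161), and its lowest value was again that of ctrl replicate 1. Clec4e, the glycolipid receptor Mincle, is in the bacterial sensing and neutrophil lists and not in the NF-kB list. It had medians of 349.7 and 1025 CPM and a log2 fold of −1.27. In the wider list for bacterial sensing 3 of 16 tested genes were higher and 3 lower (37.5% called, against 23.6% of all genes). Without Ly6Chi MHCIIhi ctrl replicate 1 it was 3 and 7 of 17, and 1 instead of 3 was higher without any one of Ly6Chi MHCIIhi ko replicates 3 and 4, Ly6Clo MHCIIlo ctrl replicate 4 or Ly6Clo MHCIIlo ko replicate 1.

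Chemokine genes were called in both directions. Of 23 tested chemokine and receptor genes 4 were higher and 7 lower (47.8% called, against 23.6% of all genes). Without Ly6Chi MHCIIhi ctrl replicate 1 it was 4 and 10 of 23, and without ctrl replicate 4 of that population 4 were lower. Ccl12, a ligand of CCR2, lay between 67.3 and 320.1 CPM against 24.99 to 78.9 CPM, a log2 fold of 1.67 (SE 0.28, adjusted p = 0.000111), while Ccr2 itself fell. Cxcl14, a chemokine of mucosal tissue, had medians of 416 and 176 CPM and a log2 fold of 1.28. Of 7 Fc receptor genes 1 was higher and 1 lower (0 to 2 lower when single samples were left out), which is near the 23.6% called among all genes. Fcrls, an Fc receptor-like scavenger protein of resident macrophages, had medians of 101 and 24.1 CPM and a log2 fold of 2.23 (SE 0.39, adjusted p = 0.000199). Fcgr2b, the inhibitory IgG receptor, had medians of 561 and 1150 CPM and a log2 fold of −0.74 (SE 0.20, adjusted p = 0.00917), which was not past the threshold without Ly6Chi MHCIIhi ctrl replicate 4 (−0.58, adjusted p = 0.0681).

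Among 22 tested myeloid transcription factors 3 were higher and 6 lower (40.9% called, against 23.6% of all genes). Maf, a factor of resident macrophages, lay between 201 and 248 CPM (median 237) against 49.97 to 122 CPM (median 99.7), a log2 fold of 1.27 (SE 0.17, adjusted p = 3.56e-06). Cebpa, a factor of the myeloid lineage, had medians of 132 and 55.2 CPM and a log2 fold of 1.33. Bhlhe40, a repressor of the interleukin 10 gene, had medians of 212 and 611 CPM and a log2 fold of −1.29 (SE 0.18, adjusted p = 5.13e-06). Without Ly6Chi MHCIIhi ctrl replicate 1, 11 factors were lower, and without ctrl replicate 4 of that population, 3.

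Of 50 tested cytosolic ribosomal protein genes 30 were lower, 20 did not pass and none was higher, with a median log2 fold of −0.58. That is 60% called, against 23.6% of all genes. The counts were 27 lower and 1 higher without Ly6Chi MHCIIhi ctrl replicate 1; the latter was Rpsa, of the small subunit, which had a log2 fold of 0.39 (adjusted p = 0.304) with all samples and 0.62 (adjusted p = 0.0228) without that one. Rplp0, of the large subunit stalk, lay between 862 and 1148 CPM against 1699 to 2130 CPM, a log2 fold of −0.85 (SE 0.14, adjusted p = 6.37e-05). Rps14, of the small subunit, lay between 1710 and 2273 CPM against 2849 to 4043 CPM, a log2 fold of −0.81. Many ribosomal genes have near-identical pseudogenes, so their counts are uncertain. Of 43 tested genes of oxidative phosphorylation none was higher and 10 were lower, with a median log2 fold of −0.17. That is 23.3% called, near the 23.6% of all genes, of which 11.9% were lower. When single samples were left out, 4 to 14 of the list were lower. Ndufa4, a subunit of the respiratory chain, had medians of 263 and 449 CPM and a log2 fold of −0.90. No heat shock gene passed (10 tested), while 1 was higher without Ly6Chi MHCIIhi ctrl replicate 1 and 1 without Ly6Clo MHCIIlo ctrl replicate 1. Of 25 tested genes of glycolysis and hypoxia 1 was higher and 3 lower (16%, against 23.6% of all genes); without Ly6Chi MHCIIhi ctrl replicate 1 5 of 27 were lower, and the 1 higher call was lost without any one of Ly6Chi MHCIIhi ctrl replicate 4, Ly6Clo MHCIIlo ctrl replicate 2 or Ly6Clo MHCIIlo ko replicates 1 and 3.

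**Figure D3:**
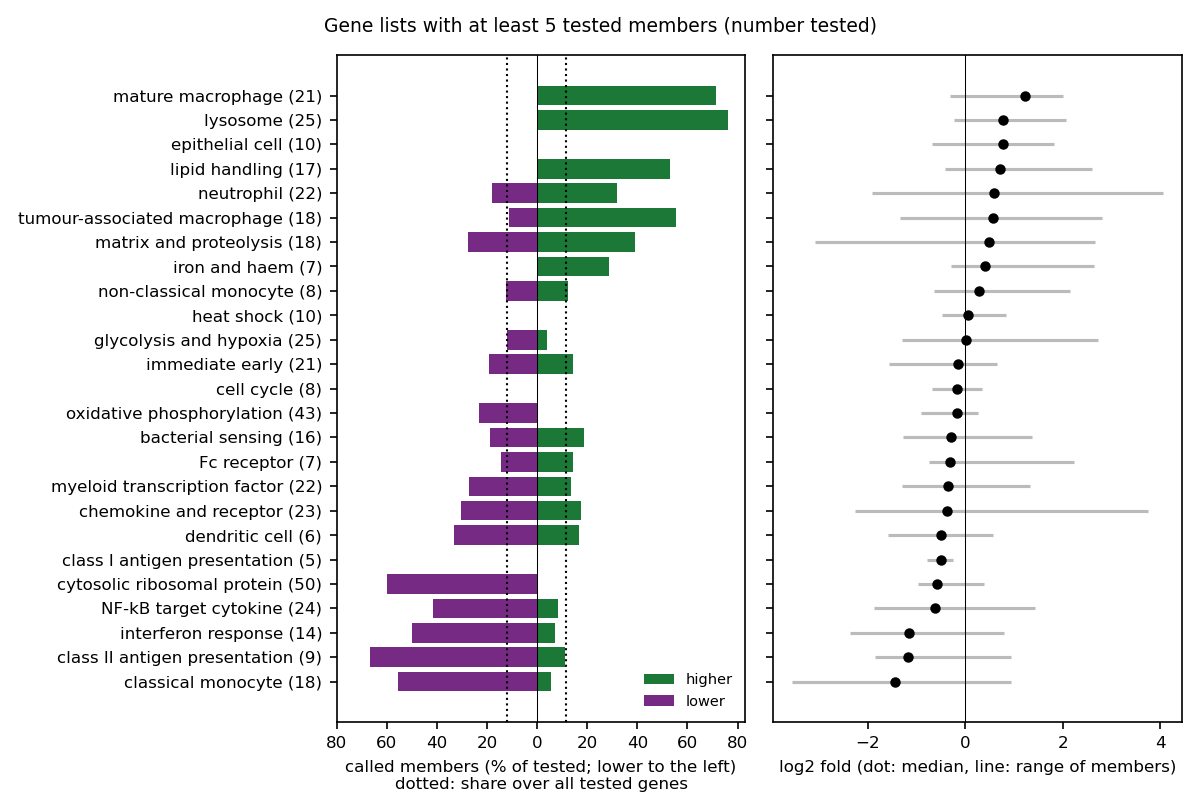
The left panel gives, for each list with at least 5 tested genes, the share of tested members called higher (green, to the right) and lower (purple, to the left) in Ly6Clo MHCIIlo, with dotted lines at the shares over all tested genes (11.7% and 11.9%). The right panel gives the median log2 fold (dot) and the range of members (line); mature macrophage, lysosome and lipid lists have no member called lower, and ribosomal protein genes have none called higher.

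Neutrophil transcripts were present in Ly6Clo MHCIIlo in every sample. The summed level of 28 neutrophil genes was 7936 to 36450 CPM in the 8 Ly6Clo MHCIIlo samples, 5665 to 8322 CPM in 6 Ly6Chi MHCIIhi samples and 84940 CPM in ctrl replicate 1. With that sample 7 of 22 tested genes were higher and 4 lower (50% called, against 23.6% of all genes, median log2 fold 0.58). Without it 14 of 23 were higher and 4 lower (median 1.65), where 27.5% of all 4631 tested genes were called. The 4 lower with all samples were Slpi (log2 fold −1.39), Clec4e (−1.27), Mxd1 (−0.89) and Il1r2 (−0.72). Without ctrl replicate 1, Il1r2 did not pass (−0.75, adjusted p = 0.0581) and Cxcr4 was lower (−0.55, adjusted p = 0.0171). S100a8, a subunit of the antimicrobial protein calprotectin, lay between 1928 and 9471 CPM (median 4235) in Ly6Clo MHCIIlo, between 84.9 and 592 CPM in 6 Ly6Chi MHCIIhi samples, and at 27700 CPM in ctrl replicate 1. Its log2 fold was 1.18 with all samples (SE 1.59, adjusted p = 0.636) and 4.07 without that sample (SE 0.45, adjusted p = 3.50e-05). Its partner S100a9 went from 1.60 (adjusted p = 0.550) to 4.60 (adjusted p = 0.000209). Retnlg, a secreted resistin-like protein, went from 2.54 (adjusted p = 0.145) to 4.88 (adjusted p = 0.00017). G0s2, an inhibitor of fat breakdown, was called either way, at 3.11 (adjusted p = 0.00997) and 4.20 (adjusted p = 0.000167).

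Cxcr2 and Stfa2l1, genes of the neutrophil list with some of the largest folds, were at most at 11.8 CPM in Ly6Chi MHCIIhi. Cxcr2, the receptor through which neutrophils follow CXC chemokines (1:74153989-74161246), lay between 15.1 and 206 CPM (median 61.7) against 0 to 11.8 CPM, a log2 fold of 3.75 (SE 0.63, adjusted p = 0.000177), and had no count in ctrl replicate 1. Stfa2l1, a protease inhibitor of the stefin A family (16:36156811-36161953), lay between 15.1 and 111 CPM (median 50.1) against 0 to 7.89 CPM, a log2 fold of 4.06 (SE 0.63, adjusted p = 2.35e-05), and also had no count there. That library held 78264 counts, in which a gene at such levels would give only a few counts. A count of 0 in it thus does not show that Cxcr2 or Stfa2l1 was absent. Il1f9, which encodes the cytokine interleukin 36 gamma (2:24186476-24193568), had the largest fold of the genes named: it lay between 51.6 and 351 CPM (median 88.2) against 0 to 7.21 CPM in 6 samples and 49.9 CPM in ctrl replicate 1, a log2 fold of 4.30 (SE 0.80, adjusted p = 0.00141). Il1f9 is not in the neutrophil list. Granule genes of maturing neutrophils had another distribution. Camp, cathelicidin, was at 9755 CPM in ctrl replicate 1 and at most at 423 CPM in Ly6Clo MHCIIlo. Ngp was at 7495 CPM and at most at 431 CPM, and Ltf, lactoferrin, at 1230 CPM and at most at 84.4 CPM. Mki67, a marker of dividing cells, was at 748 CPM in ctrl replicate 1, between 28.5 and 115 CPM in Ly6Clo MHCIIlo and at most at 46.9 CPM in the other Ly6Chi MHCIIhi samples. Elane, the elastase of early granules, was at 465 CPM in ctrl replicate 1 and had no count in Ly6Clo MHCIIlo. Ly6g, which defines mouse neutrophils, had 35 counts over Ly6Clo MHCIIlo and 11 over Ly6Chi MHCIIhi. What part neutrophils have in the higher genes of Ly6Clo MHCIIlo was not tested.

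**Figure D4:**
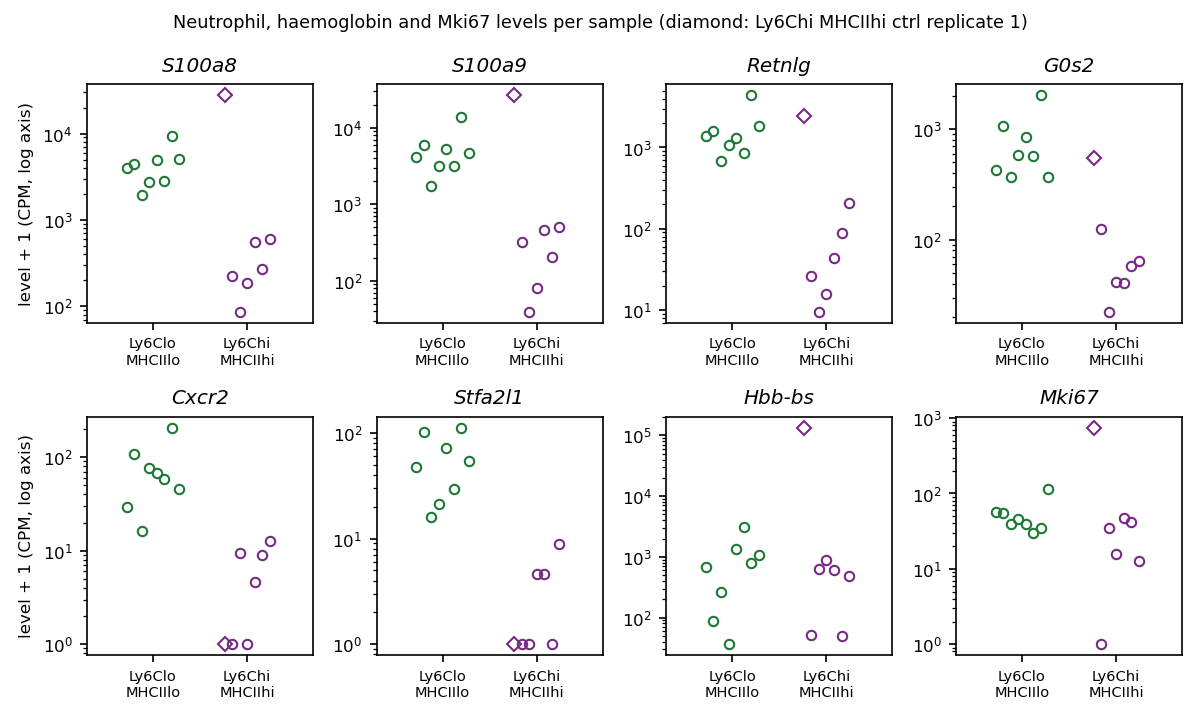
Level + 1 in CPM on a log axis for neutrophil genes, a haemoglobin gene (Hbb-bs) and Mki67 in each of 8 Ly6Clo MHCIIlo (green) and 7 Ly6Chi MHCIIhi (purple) samples, with Ly6Chi MHCIIhi ctrl replicate 1 as a diamond. The diamond is the highest purple point for S100a8, S100a9, Retnlg, G0s2, Hbb-bs and Mki67 and lies at 0 CPM for Cxcr2 and Stfa2l1.

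Lists of other cell types held at most 4 tested genes each, and 1 call in 4 is near the 23.6% called among all genes. Of 4 tested B and plasma cell genes 1 was lower (0 to 2 when single samples were left out), and all 4 were lower with a block for the replicate number. The 1 gene was Mzb1, a chaperone of antibody-secreting cells, with medians of 0 and 46.9 CPM and a log2 fold of −3.31 (SE 0.83, adjusted p = 0.00574). The summed level of the list was 66.8 to 4875 CPM against 78.9 to 14470 CPM. The 3 tested mast cell genes did not pass (0 to 1 higher when single samples were left out), and no gene of the eosinophil, endothelial or platelet lists reached the count filter. The 4 tested haemoglobin genes did not pass (median log2 fold −2.80, and 1.15 without Ly6Chi MHCIIhi ctrl replicate 1).

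The other sorted populations, 8 samples of Ly6Chi MHCIIlo and 16 of Ly6Clo MHCIIhi, show how the leaders relate to each marker alone; these are levels with no test. Of the 15 genes named by fold on the higher side, 14 had their highest median in Ly6Clo MHCIIlo and 1, Adamdec1, in Ly6Clo MHCIIhi (143 against 118 CPM). Of the 15 on the lower side 11 had their lowest median in Ly6Clo MHCIIlo, while the highest median was in Ly6Chi MHCIIlo for 8, in Ly6Chi MHCIIhi for 5 and in Ly6Clo MHCIIhi for 2. Over all called genes, 401 of the 490 higher ones had their highest median in Ly6Clo MHCIIlo and 415 of the 497 lower ones their lowest. All these genes were chosen by the difference of Ly6Clo MHCIIlo from Ly6Chi MHCIIhi in the same samples. That choice favours Ly6Clo MHCIIlo as the extreme in advance, so the counts are no separate evidence. C1qa and Apoe had their higher medians in both Ly6Clo populations: the median of C1qa was 2756 CPM in Ly6Clo MHCIIlo, 2789 in Ly6Clo MHCIIhi, 623 in Ly6Chi MHCIIhi and 177 in Ly6Chi MHCIIlo. Apoe had medians of 21740, 25160, 6442 and 3062 CPM in the same order. Ctsd, by contrast, stood highest in Ly6Clo MHCIIlo, with medians of 3142, 1458, 674 and 679 CPM. Mfge8 had medians of 999.9, 315, 93.3 and 44.8 CPM, and Gpnmb of 225, 39.98, 24.1 and 11.8 CPM. Cd83 had its higher medians in the MHCIIhi populations, with medians of 325, 1066, 864 and 618 CPM. S100a8 and Il1f9 had their higher medians in both MHCIIlo populations: the median of S100a8 was 4235 CPM in Ly6Clo MHCIIlo and 4180 in Ly6Chi MHCIIlo, against 105 in Ly6Clo MHCIIhi and 266 in Ly6Chi MHCIIhi. Il1f9 had medians of 88.2 and 77.7 CPM in the MHCIIlo populations and of 4.09 and 3.94 CPM in the MHCIIhi ones.

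**Figure D5:**
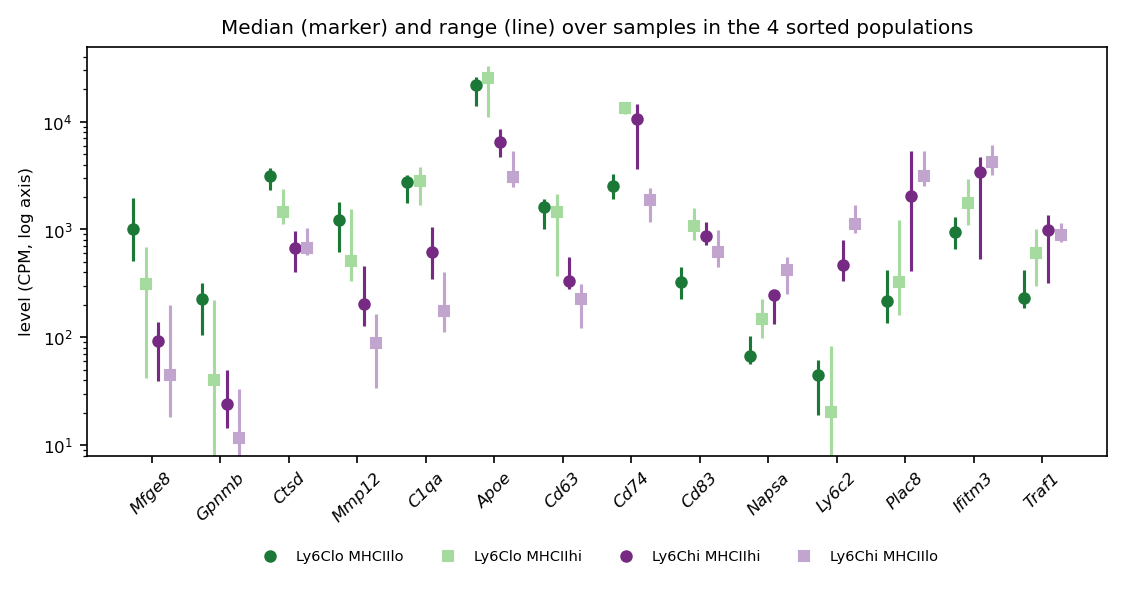
Median level (marker) and range over samples (line) in CPM on a log axis for 14 genes in Ly6Clo MHCIIlo (8 samples), Ly6Clo MHCIIhi (16), Ly6Chi MHCIIhi (7) and Ly6Chi MHCIIlo (8); lines that meet the lower edge go on below the axis. C1qa, Apoe and Cd63 are high in both Ly6Clo populations, Mfge8, Gpnmb and Ctsd are highest in Ly6Clo MHCIIlo, and Ly6c2 and Plac8 are high in both Ly6Chi populations.

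Whether the difference between populations depended on genotype was tested as an interaction. No gene passed (smallest adjusted p = 0.857), 227 of 4175 had an unadjusted p under 0.05, and DESeq2 called 0 as well. The 3 genes with the smallest p were Znhit1, of a chromatin remodelling complex, Cd36, and Glipr1, a secreted protein related to venom allergens. The interaction of Znhit1 was −1.72 on the log2 scale (SE 0.43), with means of 139 CPM in ctrl and 124 CPM in ko of Ly6Clo MHCIIlo and of 65.6 and 193 CPM in Ly6Chi MHCIIhi. For Glipr1 it was 1.41 (SE 0.40). That of Cd36, 3.53 (SE 0.94), rests on a ctrl mean of 63.8 CPM in Ly6Chi MHCIIhi that holds the 149.6 CPM of ctrl replicate 1. Without Ly6Chi MHCIIhi ctrl replicate 4, 22 genes passed, and without any other sample none did. Only 3 ctrl samples were used in Ly6Chi MHCIIhi, so the depth and number of samples limit this test. The sample barcodes also differed between the genotypes, with 1 G or C in every ctrl library and 3 to 5 in every ko library, so that barcode and genotype cannot be told apart; both populations hold both kinds.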

How the data were processed

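Bulk 3′ sequencing libraries of poly(A) RNA were made after a published protocol with small changes, per the labels' protocols. The authors deposited 1 table of whole-number counts, a row for each gene symbol and a column for each library, and no normalization is recorded. GRCm38, R 3.4.4 and DESeq2 1.18.1 are named in the submitters' processing notes. The sources used here name neither aligner nor counter and do not say whether reads or molecular identifiers were counted, so floors and depths cover counting error only. Of 24538 table rows 15856 (64.6%) carry a GENCODE M21 symbol (GRCm38), the source of gene coordinates. The row called z (127 counts, 0.000968%) is no gene and was removed.

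Libraries under 0.1 of the median total (28006 counts) were left out, which removed 1. Genes were kept by filterByExpr (minimum count 10, minimum total 15) and tested by quasi-likelihood in edgeR 4.0.16 (R 4.3.3) for population with genotype as a covariate, with Benjamini-Hochberg adjustment over all tested genes; adjusted p-values come from edgeR except where DESeq2 is named, and called, higher and lower mean an adjusted p under 0.05. The interaction was tested in the same way. Simulated counts (4180 genes) gave 67 of 94 genes with a true log2 fold of 1 and 98 of 98 with one of 2, with 7 false calls. Every simulated library was drawn from the same mean profile apart from the changed genes. The simulation thus does not cover a library of other composition, such as Ly6Chi MHCIIhi ctrl replicate 1.

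The populations, the 34 gene lists and the motifs were chosen with earlier results of these data known. Genes are named by rule: per direction the 15 with the largest fold among those called, at 50 CPM or more in the higher population and without overlap between populations, then the sort markers, then up to 4 members with the smallest p of each list, and for the interaction the 3 with the smallest p. Predicted genes and segments of antigen receptors were passed over. Adgre1, Csf1r, Fcgr1, Spp1, Timp1, Ciita, Cd80, Cd86, Ctss, Rfxap, Isg15, Bst2, S100a8, S100a9, Retnlg, G0s2, Camp, Ngp, Ltf, Elane, Ly6g, Slpi, Mxd1, Il1r2, Cxcr4, Ctsa, Lamp1, Atp6v1a, Gaa, Rpsa, Npc2 and Slc11a1 were chosen after their values were seen. Alternatives were no count filter, size factors or the whole test from DESeq2 1.42.0, every library kept, a block for the replicate number, each genotype alone, no genotype covariate, all 8 groups in 1 fit and each sample left out; a fit without libraries under 100000 counts was added after seeing the data. The extra library of some Ly6Clo MHCIIhi replicates was added to the first.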

Additional observations from a re-analysis of the deposited data

Results flagged for a closer look

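In each population the lowest or highest sample was set against the others for the total count and for every gene given by its levels. Of 180 such sets 32 held a sample farther from its nearest neighbour than Dixon's 95% limit, and chance alone flags about 1 in 20. No cause was tested.

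Ly6Chi MHCIIhi ctrl replicate 1 held most of them. It was the highest sample of its population for S100a8 (27700 CPM, others at most 592), S100a9 (26420, others at most 505), Camp (9755, others at most 263), Ngp (7495, others at most 123), Retnlg (2426, others at most 209), Ltf (1230, others at most 14.4), Mki67 (747.8, others at most 46.9) and G0s2 (548.4, others at most 125). It was also highest for Atp2b4 (232.7 CPM), Cd36 (149.6 CPM) and Il1f9 (49.85 CPM). It was the lowest sample for Ifitm3 (531.8 CPM, others from 2970), Grn (432.1, others from 566), Traf1 (315.7, others from 949.5), Lamp1 (315.7, others from 753.6), Clec4e (232.7, others from 891), Ctsl (99.71, others from 224), Bach1 (66.47, others from 148) and Npc1 (0, others from 24.99).

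Ly6Chi MHCIIhi ko replicate 3 was the highest for Zbp1 (869 CPM, others at most 345), Isg15 (748.3, others at most 332), Cd40 (346, others at most 157) and Ly6c1 (24.14, others at most 8.49). In Ly6Clo MHCIIlo, ko replicate 3 was the highest for S100a9 (13870 CPM, others at most 5845), S100a8 (9471, others at most 5047), Retnlg (4379, others at most 1831) and G0s2 (2017, others at most 1071), 4 genes of the neutrophil list. Single samples of that population were highest for Spp1 (2489 CPM in ctrl replicate 4), Lpl (161.9 CPM in ctrl replicate 4), Fcrls (283.6 CPM in ctrl replicate 3), Timp1 (320.1 CPM in ko replicate 1) and Mki67 (114.7 CPM in ko replicate 4).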

How the results depend on the processing

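For Ly6Clo MHCIIlo against Ly6Chi MHCIIhi, 987 genes were called. The count was 974 with DESeq2 size factors, 1036 with the DESeq2 test and 954 without the count filter. Samples labelled ctrl only, 4 against 3 with both libraries under 100000 counts among them, gave 56, and samples labelled ko only gave 830. Leaving out single samples gave 771 (without Ly6Chi MHCIIhi ctrl replicate 4) to 1275 (without ctrl replicate 1). No gene called in the full comparison and in another setting changed sign. The Interaction of population and genotype had 0 calls, 8 without the count filter, and 0 to 22 when single samples were left out, the 22 without Ly6Chi MHCIIhi ctrl replicate 4; the cause was not tested. Samples with the same replicate number shared little: the correlations of their deviations were 0.04 to 0.10 in 7 pairs, although 7 of 7 correlated best with their own number within the genotype. With the replicate block 866 genes were called, 817 of them among the 987, and the interaction had 3. Of 98 named genes that were called and followed through the alternatives, 34 were called in every alternative that tested them. Mki67 was lower and not called (log2 fold −0.68), with single samples left out it ran from −1.33 to 0.99, and it was higher (0.99) without Ly6Chi MHCIIhi ctrl replicate 1. Ltf, at −1.28 and not called, ran from −1.86 to 3.02 in the same way, and was 2.97 without libraries under 100000 counts. In the library of 34362 counts, 3 counts are 75.0 CPM, so genes under that level are not resolved in it.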
